A study of Gallus gallus with 16 samples.

Results

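The genes of mevalonate and isoprenoid synthesis were followed in chicken duodenum, where the small intestine begins, in birds from a population selected divergently for low (LRFI) or high (HRFI) residual feed intake, the part of feed intake that weight and growth do not account for. Listed were ACAT2, HMGCS1, MVK, MVD, IDI1, IDI2, FDPS and FDFT1, and every probe set that the platform annotation tied to exactly 1 of these symbols was taken. This gave 12 of the 38439 probe sets tested and 7 of 13013 genes. There were 3 probe sets for ACAT2, 3 for IDI2, 2 for MVK and 1 each for HMGCS1, MVD, FDPS and FDFT1, while IDI1 had no such probe set and was skipped. The data were 16 single-colour Affymetrix arrays, 4 for each line at day 35 and 4 for each line at day 42. The labels name no treatment, sex or strain beyond the line, and it is not stated that each array held a bird of its own, so p-values here reflect the scatter among the arrays, and part of that may be technical.

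The mevalonate pathway builds isoprene units from acetyl-CoA, and these units are the starting material of cholesterol, dolichol, ubiquinone and the lipid anchors of prenylated proteins. ACAT2 joins acetyl-CoA units to acetoacetyl-CoA and HMGCS1 extends this to HMG-CoA, from which mevalonate is made. MVK phosphorylates mevalonate and PMVK phosphorylates the product further. MVD decarboxylates the resulting diphosphate to isopentenyl diphosphate, which an IDI isomerase converts to dimethylallyl diphosphate. FDPS condenses the units to farnesyl diphosphate and FDFT1 joins farnesyl diphosphate to squalene, the precursor of the sterol ring. In mammals the intestine is one of the main sites of cholesterol synthesis outside the liver, and the genes of the pathway share the transcription factor SREBP2, which is released when sterols in the cell are low.

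The values are log2 expression levels, on which 1 unit is a factor of 2. The lower quartile, median and upper quartile of all values were 3.75, 5.07 and 6.98. Where a gene had several probe sets, the one with the highest mean stands for it, and the others are given beside it. Apart from calling some probe sets brighter or dimmer than others, levels of different probe sets were not compared with each other. The tissue label fitted the markers, with means over the 16 arrays of 13.15 for SI, 12.18 for VIL1, 14.50 for APOA4 and 11.35 for CDX2, all genes of intestinal absorptive cells. FABP6, also counted with these cells here, was dimmer, with a mean of 5.56. Replicate 3 of HRFI day 35 and replicate 2 of LRFI day 42 carried pancreatic enzyme RNA (means of 7 genes of 14.17 and 11.99, where the remaining arrays had 4.92 to 6.17). A difference of over 1 between the 3′ and 5′ probe sets of actin, a sign of RNA quality, was found for 5 arrays, most of them of day 35. The same difference for GAPDH was 0.36 to 0.40 in LRFI day 42, above all arrays of the other groups (0.054 to 0.31). Its bearing on the comparisons with LRFI day 42 was not tested. In whole tissue, fewer cells of a type and less RNA per cell cannot be told apart.

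The means of all 7 genes were higher at day 42 than at day 35 in HRFI, by a median of 1.06 (lowest 0.28, highest 1.57), while over all 13013 genes the median was −0.0010 and 49.7% were higher. In LRFI the means of 4 of the 7 were higher and of 3 lower at day 42, with a median of 0.19. Between the lines, the means of all 7 were lower in LRFI at day 42, by a median of 0.45, whereas at day 35 the means of 6 were higher in LRFI, by a median of 0.36. Single arrays moved these medians: without HRFI day 35 replicate 4 the HRFI age median was 0.69 and the day 35 line median 0.094, without LRFI day 42 replicate 3 the day 42 line median was −0.27 and the LRFI age median 0.35, and without LRFI day 42 replicate 2 the LRFI age median was 0.023. Of all genes, 53.5% were lower in LRFI at day 42 and 49.7% higher in LRFI at day 35, and 48.3% were higher with age in LRFI. The line differences of MVK at day 42 (−0.012) and of ACAT2 at day 35 (0.016) lay near 0, and their signs changed under some alternatives. None of the 12 probe sets passed an adjusted p under 0.05 in any of the 7 comparisons of the limma fit. The mean level of the 7 genes on single arrays was 8.93, 9.29, 9.01 and 8.36 in HRFI day 35 (replicates 1 to 4) and 10.004, 9.91, 9.66 and 9.57 in HRFI day 42. It was 9.27, 8.85, 9.19 and 9.25 in LRFI day 35 and 9.63, 9.58, 8.90 and 9.03 in LRFI day 42. HRFI day 42 did not overlap with either day 35 group and overlapped with LRFI day 42, of which replicates 1 and 2 lay near it and replicates 3 and 4 near the day 35 arrays.

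**Figure D1:**
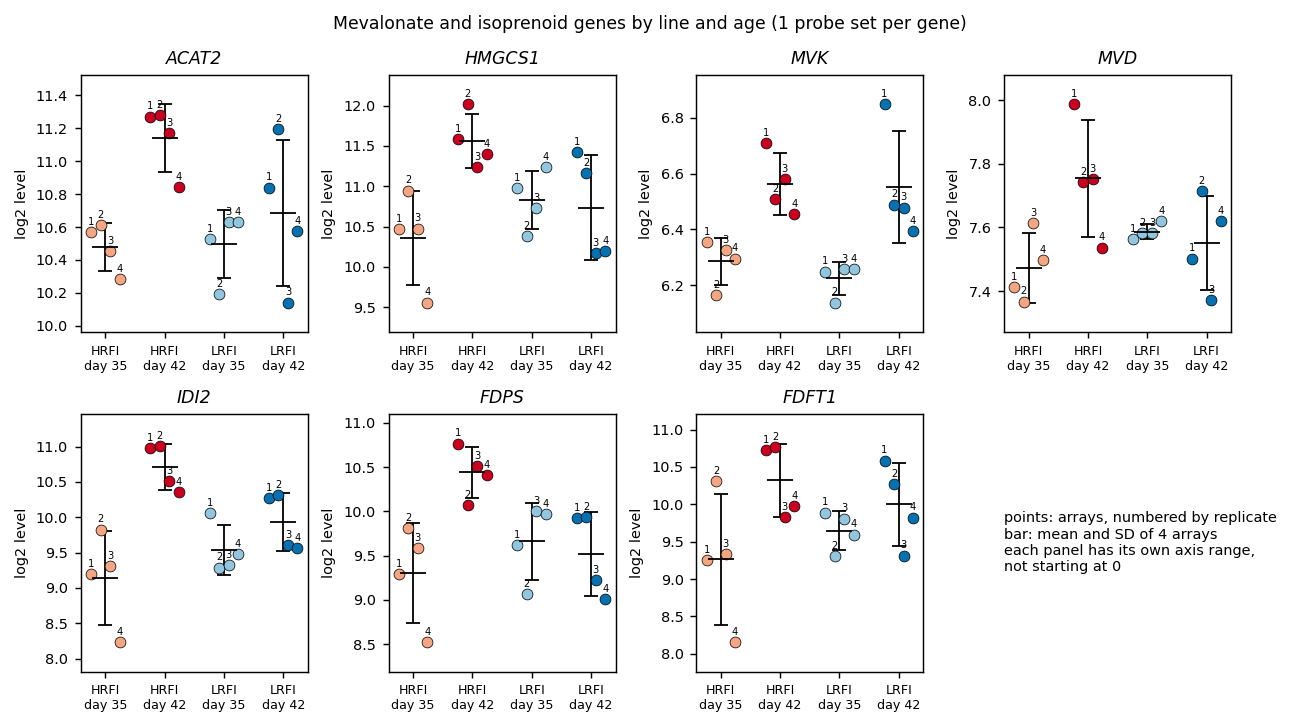
Log2 level of the 7 genes (vertical axis, a range of its own in each panel) in the 4 groups of line and age, with 1 point per array numbered by replicate and the mean and SD of 4 arrays as bars. The HRFI day 42 arrays are the 4 highest of 16 for IDI2 and FDPS, and HRFI day 35 replicate 4 is the lowest array for HMGCS1, IDI2, FDPS and FDFT1.

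ACAT2 and HMGCS1 make the substrate of the pathway. For ACAT2, the HRFI arrays read 10.57, 10.61, 10.46 and 10.28 at day 35 and 11.27, 11.28, 11.17 and 10.84 at day 42. The LRFI arrays read 10.53, 10.19, 10.63 and 10.63 at day 35 and 10.84, 11.20, 10.14 and 10.57 at day 42. The 2 ages did not overlap in HRFI and overlapped in LRFI, where 1 day 42 array was the lowest of all 16. The group means of ACAT2 were 11.14 ± 0.21 (SD, n = 4) in HRFI day 42, 10.69 ± 0.44 in LRFI day 42, 10.50 ± 0.21 in LRFI day 35 and 10.48 ± 0.15 in HRFI day 35, of which only HRFI day 42 lay apart from the day 35 groups. The day 42 mean of ACAT2 was higher than the day 35 mean by 0.66 in HRFI (SE 0.18, 1.58-fold, adjusted p = 0.355, limma) and by 0.19 in LRFI (SE 0.18). At day 42 it was lower in LRFI by 0.45 (SE 0.18, unadjusted p = 0.0223, adjusted p = 0.871, limma). Both other ACAT2 probe sets showed smaller differences. The dimmest read 2.55 to 3.01 on all arrays, under the lower quartile of all values, and the middle one read 5.56 to 6.14, with HRFI day 42 higher than day 35 by 0.023 and 0.13.

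For HMGCS1, the HRFI arrays read 10.47, 10.95, 10.48 and 9.56 at day 35 and 11.58, 12.02, 11.24 and 11.40 at day 42. The LRFI arrays read 10.98, 10.38, 10.73 and 11.23 at day 35 and 11.42, 11.16, 10.17 and 10.19 at day 42. All 4 HRFI day 42 arrays lay above all 8 day 35 arrays, while LRFI day 42 held both high and low arrays. The means of HMGCS1 ran from 11.56 ± 0.34 in HRFI day 42 through 10.83 ± 0.36 in LRFI day 35 and 10.74 ± 0.65 in LRFI day 42 to 10.36 ± 0.58 in HRFI day 35, and the lower 3 overlapped. In HRFI the day 42 mean was higher by 1.20 (SE 0.31, 2.29-fold with a 95% interval of 1.45 to 3.64, adjusted p = 0.347, limma). In LRFI it was lower by 0.094 (SE 0.31). LRFI was lower than HRFI by 0.82 at day 42 (SE 0.31, adjusted p = 0.857, limma) and higher by 0.47 at day 35 (SE 0.31, adjusted p = 0.843, limma).

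MVK and MVD act on mevalonate itself and its phosphates, and their differences were the smallest of the 7 genes in HRFI. For MVK, the HRFI arrays read 6.36, 6.16, 6.33 and 6.30 at day 35 and 6.71, 6.51, 6.58 and 6.46 at day 42. Those of LRFI read 6.25, 6.14, 6.26 and 6.26 at day 35 and 6.85, 6.49, 6.48 and 6.39 at day 42. All 8 arrays of day 42 lay above all 8 of day 35, in both lines, and the lines overlapped at each age. MVK means were 6.56 ± 0.11 and 6.55 ± 0.20 in HRFI and LRFI at day 42, and 6.29 ± 0.085 and 6.23 ± 0.059 at day 35. The day 42 mean was higher by 0.28 in HRFI (SE 0.097, adjusted p = 0.454, limma) and by 0.33 in LRFI (SE 0.097, adjusted p = 0.314, limma), and the interaction, the change in LRFI minus that in HRFI, was 0.048 (95% interval −0.24 to 0.34). The line difference at day 42 was −0.012, with an interval of −0.22 to 0.19. The dimmer MVK probe set read 4.08 to 4.75 and did not follow it (r = 0.21 over the 16 arrays, r = −0.023 within groups).

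For MVD, the HRFI arrays read 7.41, 7.37, 7.61 and 7.50 at day 35 and 7.99, 7.74, 7.75 and 7.54 at day 42. Those of LRFI read 7.56, 7.58, 7.58 and 7.62 at day 35 and 7.50, 7.71, 7.37 and 7.62 at day 42. Only HRFI day 42 stood higher, and its lowest array lay within the range of the other groups. MVD means were 7.75 ± 0.18 in HRFI day 42, 7.59 ± 0.024 in LRFI day 35, 7.55 ± 0.15 in LRFI day 42 and 7.47 ± 0.11 in HRFI day 35. The day 42 mean was higher by 0.28 in HRFI (SE 0.099, adjusted p = 0.454, limma) and lower by 0.035 in LRFI, and LRFI was lower than HRFI by 0.20 at day 42 (SE 0.099, adjusted p = 0.903, limma). PMVK, the kinase between MVK and MVD and no member, had means of 7.27 ± 0.16 in HRFI day 42, 7.76 ± 0.68 in LRFI day 42, 7.32 ± 0.25 in HRFI day 35 and 7.31 ± 0.31 in LRFI day 35. Its mean was thus higher in LRFI at day 42, by 0.49 (SE 0.25, adjusted p = 0.903, limma), opposite to the members, with 8.43 and 8.24 on LRFI day 42 replicates 2 and 4 and 7.30 and 7.06 on replicates 1 and 3.

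IDI2, an isopentenyl diphosphate isomerase that in mammals has IDI1 as a close relative, had the largest age difference of the 7 genes in HRFI. On its brightest probe set the HRFI arrays read 9.19, 9.82, 9.31 and 8.24 at day 35 and 10.98, 11.001, 10.51 and 10.35 at day 42. The LRFI arrays read 10.06, 9.29, 9.32 and 9.48 at day 35 and 10.27, 10.32, 9.61 and 9.56 at day 42. The 4 HRFI day 42 arrays were the highest of all 16, and the other 3 groups overlapped. IDI2 means were 10.71 ± 0.33 in HRFI day 42, 9.94 ± 0.41 in LRFI day 42, 9.54 ± 0.36 in LRFI day 35 and 9.14 ± 0.66 in HRFI day 35. In HRFI the day 42 mean was higher by 1.57 (SE 0.29, 2.97-fold with a 95% interval of 1.94 to 4.54, adjusted p = 0.194, limma), which ranked 10 of all 38439 probe sets by p. In LRFI the difference was 0.40 (SE 0.29), and at day 42 LRFI was lower by 0.77 (SE 0.29, adjusted p = 0.857, limma).

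The dimmest probe set of IDI2 read 7.51, 8.06, 7.71 and 6.67 in HRFI day 35 and 9.55, 9.83, 9.10 and 8.84 in HRFI day 42. It read 8.72, 8.11, 7.56 and 7.58 in LRFI day 35 and 8.83, 8.64, 8.30 and 8.08 in LRFI day 42. The HRFI day 42 arrays were again the 4 highest, with LRFI day 42 replicate 1 close under them, and HRFI day 35 replicate 4 was the lowest. Its HRFI age difference was 1.84 (SE 0.31, adjusted p = 0.124, limma), rank 6 of 38439, and it correlated with the brighter set at r = 0.97 over the 16 arrays. The middle IDI2 probe set read 8.41, 9.41, 8.19 and 6.96 in HRFI day 35 and 9.35, 9.68, 8.77 and 9.18 in HRFI day 42. Here the ages overlapped, and the HRFI age difference was 1.004 (SE 0.45, adjusted p = 0.583, limma). In LRFI this set read 9.27, 8.0001, 9.02 and 9.21 at day 35 and 9.58, 9.31, 8.35 and 7.88 at day 42, so that its mean was lower at day 42 by 0.092, where the other IDI2 sets had higher means. Whether these probes also read IDI1 transcripts was not tested.

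FDPS makes farnesyl diphosphate, from which the sterol, dolichol, ubiquinone and prenylation branches part. Its HRFI arrays read 9.29, 9.81, 9.58 and 8.52 at day 35 and 10.77, 10.07, 10.51 and 10.41 at day 42. In LRFI the levels were 9.62, 9.06, 9.999 and 9.97 at day 35 and 9.92, 9.94, 9.22 and 9.01 at day 42. The 4 HRFI day 42 arrays were the highest of 16, and the remaining groups overlapped. FDPS means were 10.44 ± 0.29 in HRFI day 42, 9.66 ± 0.44 in LRFI day 35, 9.52 ± 0.48 in LRFI day 42 and 9.30 ± 0.56 in HRFI day 35. The day 42 mean was higher by 1.14 in HRFI (SE 0.28, 2.20-fold with a 95% interval of 1.45 to 3.34, adjusted p = 0.326, limma) and lower by 0.14 in LRFI (SE 0.28). FDPS had the largest line difference of the 7 genes at day 42, lower in LRFI by 0.92 (SE 0.28, unadjusted p = 0.00517, adjusted p = 0.796, limma), and at day 35 it was higher in LRFI by 0.36 (SE 0.28).

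FDFT1, squalene synthase, commits farnesyl diphosphate to sterols. Its HRFI arrays read 9.25, 10.31, 9.33 and 8.16 at day 35 and 10.72, 10.77, 9.83 and 9.97 at day 42. The LRFI arrays read 9.89, 9.30, 9.81 and 9.59 at day 35 and 10.58, 10.27, 9.31 and 9.82 at day 42. All 4 groups overlapped, with HRFI day 35 holding both the lowest array and 1 array above 2 of the HRFI day 42 arrays. FDFT1 means were 10.32 ± 0.49 in HRFI day 42, 9.998 ± 0.55 in LRFI day 42, 9.65 ± 0.26 in LRFI day 35 and 9.26 ± 0.88 in HRFI day 35. The age difference was 1.06 in HRFI (SE 0.37, 2.09-fold, adjusted p = 0.454, limma) and 0.35 in LRFI (SE 0.37), and the line difference at day 42 was −0.32 (95% interval −1.10 to 0.45).

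**Figure D2:**
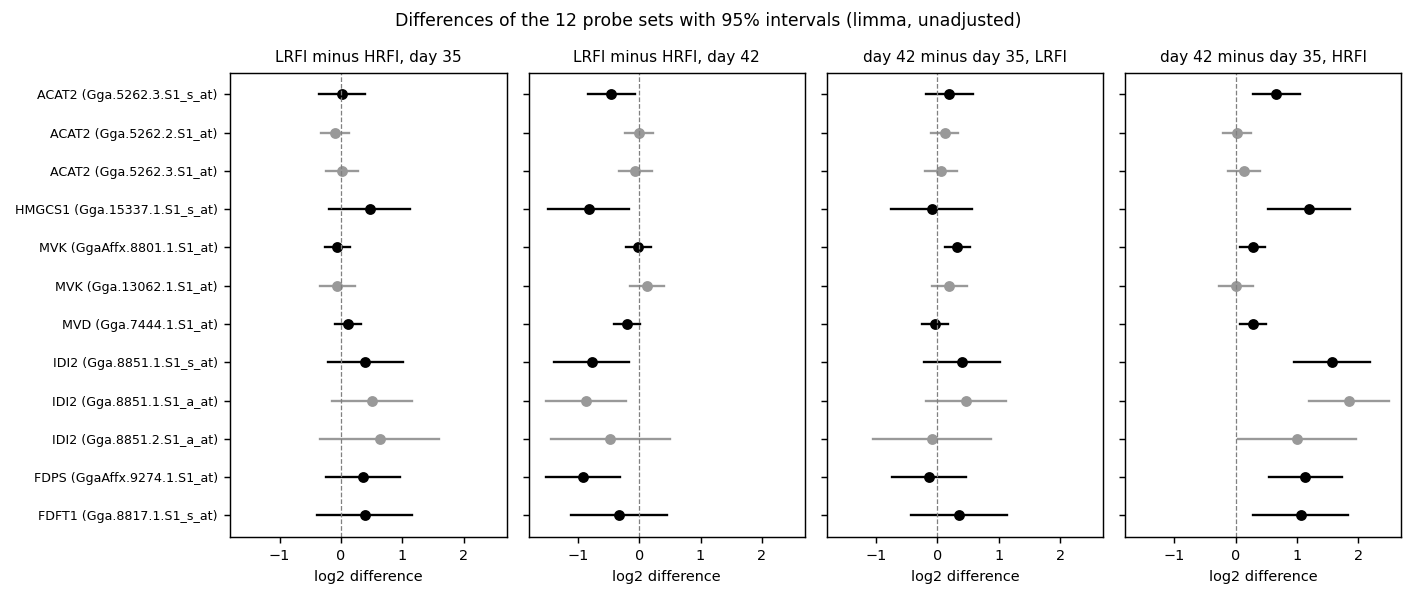
Log2 differences (horizontal axes) of the 12 probe sets in 4 comparisons, with 95% intervals from limma that are not adjusted for multiple tests. Black marks the probe set of the highest mean of each gene and grey the others. For HRFI day 42 minus day 35 the black intervals of all 7 genes lie above 0, while for LRFI only the MVK interval does.

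The counts of members called were read against those of all probe sets. This is a description and not a test, since the members were chosen with earlier results of these data known. Probe sets of the same gene, and genes that move together, are also not independent. For age in HRFI, 9 of the 12 probe sets, covering all 7 genes, had an unadjusted p under 0.05 and a higher mean at day 42, against 4.12% of all probe sets. The groups did not overlap for 6 of the 12 (ACAT2, HMGCS1, MVK, FDPS and the brightest and dimmest set of IDI2), against 2.12%. By adjusted p, 0 of the 12 and 0% of all probe sets passed with limma, and the smallest adjusted p of any probe set was 0.109. In LRFI, MVK was the single member with an unadjusted p under 0.05 (1 of 12, against 4.45% of all probe sets) and the single member without overlap (1 of 12, against 2.15%), and 0% of all probe sets passed the adjusted p. Averaged over the lines, 7 of the 12 had an unadjusted p under 0.05 and a higher mean at day 42, against 6.18%, with 1.16 for the dimmest IDI2 set (SE 0.22, adjusted p = 0.0802, limma) and 0.30 for MVK (SE 0.068, adjusted p = 0.143, limma). In that comparison 0.0026% of all probe sets passed the adjusted p, and no member was among them.

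Between the lines at day 42, 5 of the 12 probe sets (FDPS, HMGCS1, ACAT2 and 2 of IDI2) had an unadjusted p under 0.05 and a lower mean in LRFI, against 3.26% of all probe sets, and 3 (FDPS and the same 2 of IDI2) did not overlap, against 2.69%. The adjusted p was passed by 0 of the 12 and by 0.0026% of all probe sets. The count of 5 was 2 without LRFI day 42 replicate 3 or without replicate 4, the low arrays of that group, and 3 without HRFI day 42 replicate 2. At day 35, 0 of the 12 probe sets had an unadjusted p under 0.05 (2.84% of all probe sets were called higher and 3.82% lower), 0 were free of overlap (0.994% higher and 1.88% lower), and 0% of all probe sets passed the adjusted p. Without HRFI day 35 replicate 2, however, 4 of the 12 had an unadjusted p under 0.05 at day 35. Shares of all probe sets are not given here for fits with an array left out, so those counts stand without such a comparison. Averaged over the ages the median of the 7 genes was −0.18, with FDPS at −0.28 (SE 0.20) and FDFT1 at 0.031, and 0 of the 12 had an unadjusted p under 0.05 (2.19% of all probe sets higher and 3.29% lower), nor did any probe set pass the adjusted p (0%).

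The interaction asks whether the age difference itself differed between the lines. It was −1.29 for HMGCS1 (SE 0.44), −1.28 for FDPS (SE 0.40), −1.17 for IDI2 (SE 0.41), −0.71 for FDFT1 (SE 0.52), −0.47 for ACAT2 (SE 0.25), −0.32 for MVD (SE 0.14) and 0.048 for MVK (SE 0.14), where a negative value is an age difference lower in LRFI than in HRFI. The unadjusted p was under 0.05 for 5 of the 12 probe sets (HMGCS1, FDPS, MVD and 2 of IDI2), against 3.17% of all probe sets. The adjusted p of the members was 0.714 or more (limma) and 0% of all probe sets passed, so that no difference between the lines in the age effect was shown for a single gene. HRFI day 35 replicate 4 was low for most members. Without it the HRFI age difference was 0.88 for FDPS, 0.93 for HMGCS1, 1.27 for IDI2, 0.69 for FDFT1 and 0.60 for ACAT2. Then 8 of the 12 probe sets had an unadjusted p under 0.05, and the share of all probe sets without that array is not given here. The median interaction of the 7 genes without it was −0.40.

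The members moved together over the arrays. Among the 21 pairs of the 7 genes the median correlation over the 16 arrays was 0.72 (lowest 0.42, highest 0.90), and after each group was centred on its mean it was 0.54 (lowest 0.10, highest 0.91). IDI2 and FDFT1 (r = 0.90, and 0.91 within groups) and HMGCS1 and IDI2 (r = 0.90, and 0.86 within groups) were the closest pairs. MVD was among the least like, at 0.53 with HMGCS1 (0.10 within groups) and 0.46 with FDFT1 (0.17 within groups). The points share arrays and normalization, and these correlations are descriptions without a test.

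**Figure D3:**
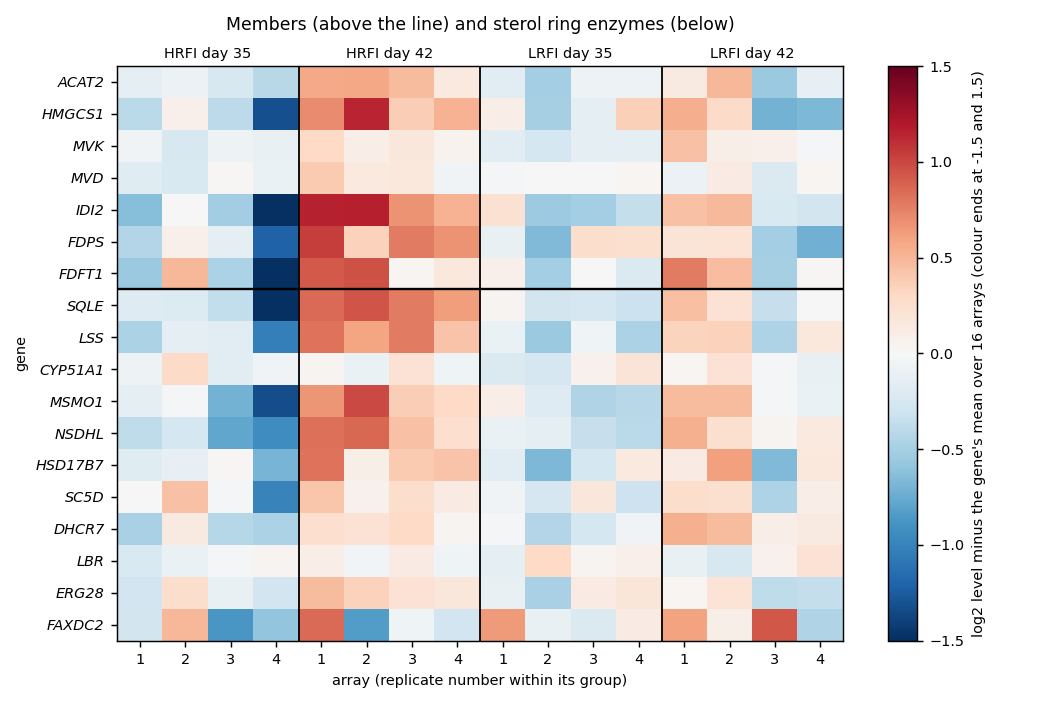
Log2 level of each gene minus its mean over the 16 arrays (colour, red higher and blue lower) for the 7 members, above the line, and the 11 measured genes of the sterol ring list, mostly enzymes, below it, with the arrays in columns by group and replicate. HRFI day 42 is red for most members, and HRFI day 35 replicate 4 is the bluest column. In LRFI day 42, replicates 1 and 2 are higher than replicates 3 and 4 except for MVD, HSD17B7, LBR and FAXDC2, and by little for MVK.

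With each gene taken by whichever of its probe sets was most like the members, the genes nearest to the member mean over the 16 arrays were AACS, a cytosolic acetoacetyl-CoA synthetase (r = 0.931), LSS, the lanosterol synthase that closes the sterol ring (0.923), SQLE, the squalene epoxidase before it (0.921), INSIG1, a sterol-dependent anchor of the SREBP escort protein (0.907), MSMO1, a sterol methyl oxidase (0.889), and FASN, the fatty acid synthase (0.886). HSD17B7 (0.866), NSDHL (0.854), ACAA1 (0.844) and ERG28 (0.841) completed the first 10. With each of 13006 genes taken by its brightest probe set instead, the median was 0.015, 17 genes were over 0.8, and the first 10 held 7 genes of the sterol and fatty acid lists, which were LSS, SQLE, MSMO1, FASN, NSDHL, ERG28 and ACLY (0.836). INSIG1 was then at 0.783 and HSD17B7 at 0.821, ranks 25 and 11. After the groups were centred on their means, AACS (0.871), ACAA1 (0.854) and HSD17B7 (0.853) were among the first 10 by the most similar probe set, together with ECHDC1, RCBTB1, STX1A, CLIP2 and the mitochondrial ribosomal protein genes MRPS27, MRPS18A and MRPL47, and by its brightest probe set HSD17B7 was at 0.706. AACS was at 9.61 ± 0.51 in HRFI day 42, 8.98 ± 0.57 in LRFI day 42, 8.45 ± 0.23 in LRFI day 35 and 8.36 ± 0.43 in HRFI day 35, with a HRFI age difference of 1.25 (SE 0.29, adjusted p = 0.273, limma).

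The sterol ring list, made up mostly of enzymes on the way from squalene to cholesterol, had the list median nearest to the members for age in HRFI and for the lines at day 42. For the interaction the median was −0.71 for the members, −0.38 for the sterol ring list and −0.50 for the mitochondrial genes ACAT1 and OXCT1. Other lists were also nearer than the sterol ring list for the lines at day 35 and for age in LRFI. Means of all 11 measured were higher at day 42 in HRFI, by a median of 0.52 against 1.06 for the members. Of the 11, 7 had an unadjusted p under 0.05, against 4.12% of all probe sets, and 0 had an adjusted one. NSDHL, a sterol dehydrogenase, had the smallest p of all 38439 probe sets in that comparison (1.18, SE 0.17, adjusted p = 0.109, limma), and its 4 HRFI arrays read 9.49, 9.60, 9.10 and 8.93 at day 35 and 10.69, 10.74, 10.31 and 10.12 at day 42. SQLE read 9.49, 9.48, 9.32 and 7.75 in HRFI day 35 and 10.53, 10.63, 10.47 and 10.32 in HRFI day 42 (1.48, SE 0.29, adjusted p = 0.213, limma). In both genes the ages did not overlap in HRFI, and replicate 4 was the lowest HRFI day 35 array, as it was for 5 of the 7 members (not for MVK and MVD). LSS differed by 1.10 (SE 0.20) and ERG28 by 0.41 (SE 0.17). At day 42 the means of 8 of the 11 were lower in LRFI, by a median of 0.35, with SQLE at −0.72, LSS at −0.56, ERG28 at −0.42 and NSDHL at −0.35. In LRFI the day 42 means of 9 of the 11 were higher, by a median of 0.28.

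Lists farther along differed less. Of 12 genes that use isoprenoids for prenylation, dolichol or ubiquinone, the HRFI day 42 means of 10 were higher, with a median of 0.15. An unadjusted p under 0.05 was found for 3 of the 12, against 4.12% of all probe sets. FNTB, the beta subunit of protein farnesyltransferase, was higher by 0.998 (SE 0.35), NUS1, a subunit of the dolichol-making prenyltransferase, by 0.31 (SE 0.11), and FNTA and PDSS2 by 0.046 and 0.092. ZMPSTE24, a protease that trims prenylated proteins, had a higher mean in LRFI at day 42, by 0.43 (SE 0.17). Among 12 genes of sterol sensing and uptake, the HRFI day 42 means of 9 were higher with a median of 0.081. Against 4.12% of all probe sets, 3 of the 12 had an unadjusted p under 0.05. These were STARD4, a cytosolic sterol carrier (0.78, SE 0.19), INSIG1 (0.63, SE 0.19) and MBTPS2, the protease that makes the final cut in SREBP (0.61, SE 0.27, on a probe set at 4.05 to 5.87). Their line differences at day 42 were −0.36, −0.40 and −0.63. The SREBF1 and SREBF2 genes themselves differed by −0.076 and 0.16 with age in HRFI, and by 0.072 and −0.094 between the lines at day 42.

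The 9 genes of sterol efflux and esterification had a median of 0.24 with age in HRFI and 0.0028 between the lines at day 42. MTTP, which loads lipid onto lipoproteins, had a higher mean in LRFI at day 42, by 0.71 (SE 0.21), ABCG8 by 0.24, and NR1H3, a sterol-sensing receptor, was at −0.0069. ABCG1 was dim, at 3.16 to 3.83 on all arrays. Of 10 genes of fatty acid synthesis, the HRFI day 42 means of 8 were higher, with a median of 0.28. An unadjusted p under 0.05 was found for 4 of the 10, against 4.12% of all probe sets. The median line difference at day 42 was −0.14. ELOVL6, a fatty acid elongase, had an interaction of −0.84 (SE 0.28) and SCD, a desaturase read by a probe set at 4.39 to 5.31, of −0.47 (SE 0.23), while ME1, malic enzyme, ran the other way with 0.54 (SE 0.22) and a higher mean in LRFI at day 42 by 0.47. The interaction was positive for 2 of the 10 and negative for 8. The highest interaction of the list was 1.29 and its highest line difference at day 42 was 0.77, neither of them that of ME1. FADS1, on a dim probe set at 4.01 to 4.32, was at −0.16 between the lines at day 42. The mitochondrial genes ACAT1 and OXCT1, which handle acetoacetyl-CoA in ketone metabolism, had interactions of −0.56 (SE 0.23) and −0.44 (SE 0.15). None of these genes passed an adjusted p under 0.05 in any comparison.

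**Figure D4:**
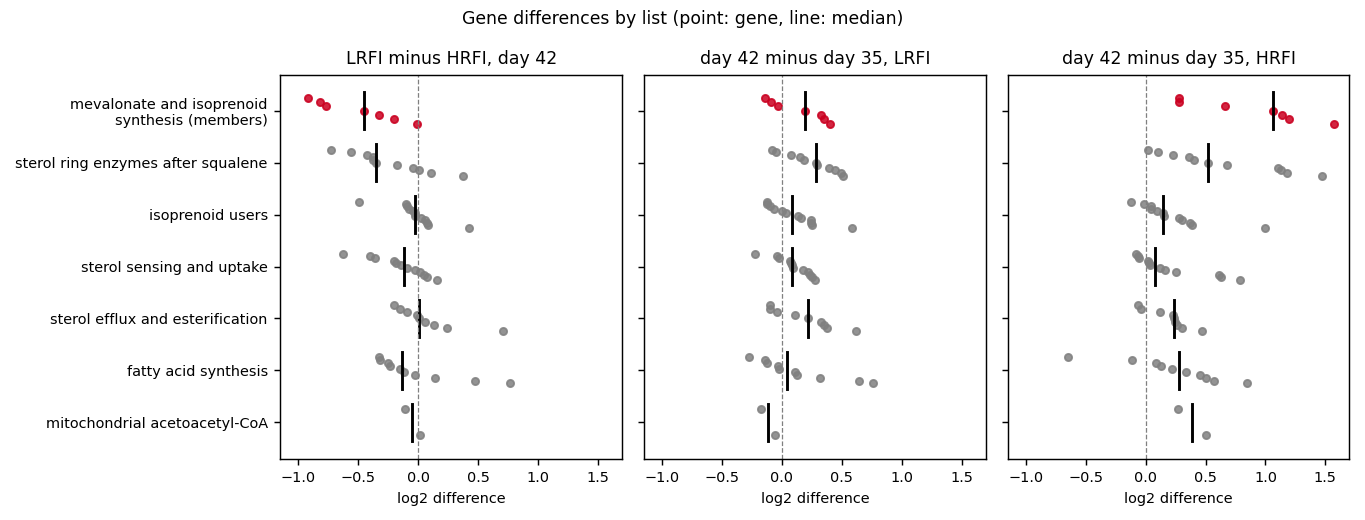
Log2 difference (horizontal axes) of each gene of the members and of 6 other lists, with a point per gene and a black line at the median of the list, for the lines at day 42 and for age in each line. Of these 7 lists, the members have the medians farthest from 0 for the lines at day 42 (−0.45) and for age in HRFI (1.06), and in LRFI their median (0.19) lies among those of the other lists. PMVK, alone in its list, is not plotted (0.49 for the lines at day 42).

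The means of several marker lists of other cell types ran opposite to the members over the arrays, while that of goblet cells ran with them. The mean of 5 T and NK cell genes (CD3E, CD3D, CD8A, CD4 and GZMA) ran from 9.56 to 10.31 in HRFI day 35, 9.53 to 9.92 in HRFI day 42, 9.45 to 9.89 in LRFI day 35 and 9.52 to 9.999 in LRFI day 42. It was highest on HRFI day 35 replicate 4, where the mean of the members was lowest, and in LRFI day 42 it was 9.999 and 9.90 on replicates 3 and 4, the arrays with low members, against 9.58 and 9.52 on replicates 1 and 2. Over the 16 arrays the correlation of this mean with the member mean was −0.59 (Spearman −0.52), −0.79 within groups and −0.44 without the 2 arrays farthest from the median. For 3 macrophage and granulocyte genes (CSF1R, MRC1 and CTSS) it was −0.44 and −0.76 within groups, with 9.03 on HRFI day 35 replicate 4 against 8.24 to 8.76 on the others. Fibroblast genes correlated with the members at −0.46 (−0.55 within groups), smooth muscle genes at −0.43 (−0.33 within groups, and −0.23 without the 2 arrays farthest from the median), B and plasma cell genes at −0.23 (−0.56) and goblet cell genes at 0.36 (0.50). The 4 measured genes of proliferating crypt cells had medians of 0.31 and −0.19 between the lines at day 35 and day 42, of 0.23 with age in HRFI and −0.28 in LRFI, and an interaction of −0.52, and correlated with the members at 0.14 (−0.014 within groups). In these lists the dimmest genes were ACTA2 of smooth muscle, with a mean of 3.67, MUC2 of goblet cells (5.05) and MRC1 of macrophages (5.72). The mean of 9 enterocyte genes was 11.22 to 11.41 in HRFI day 35, below all LRFI day 35 arrays at 11.45 to 11.55. At day 35, 7 of these 9 genes had higher means in LRFI and 2 lower, with a median of 0.11 (lowest −0.13, highest 0.76). FABP6 was the dimmest of the 9 and had the widest range, with a mean of 5.56 and arrays from 4.85 to 7.78. How far single genes make the separation of the enterocyte means at day 35 was not tested. The correlation of the enterocyte mean with the members was 0.17 (0.099 within groups, and −0.22 without the 2 arrays farthest from the median). Erythrocyte genes had a mean of 11.56 in LRFI day 35, against 9.13 to 9.88 in the other groups, and correlated with the members at −0.29 (0.025 within groups). The actin difference correlated with the members at −0.043 (0.35 within groups). The part of these cell types in the member differences was not tested. Without the 2 arrays with pancreatic enzymes the HRFI age median of the members was 1.08 and the day 42 line median −0.62, and without the 5 arrays with actin differences over 1 they were 1.54 and −0.55. The actin cut left only replicates 1 and 4 in HRFI day 35, and replicate 4 was the array with the lowest member mean.

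**Figure D5:**
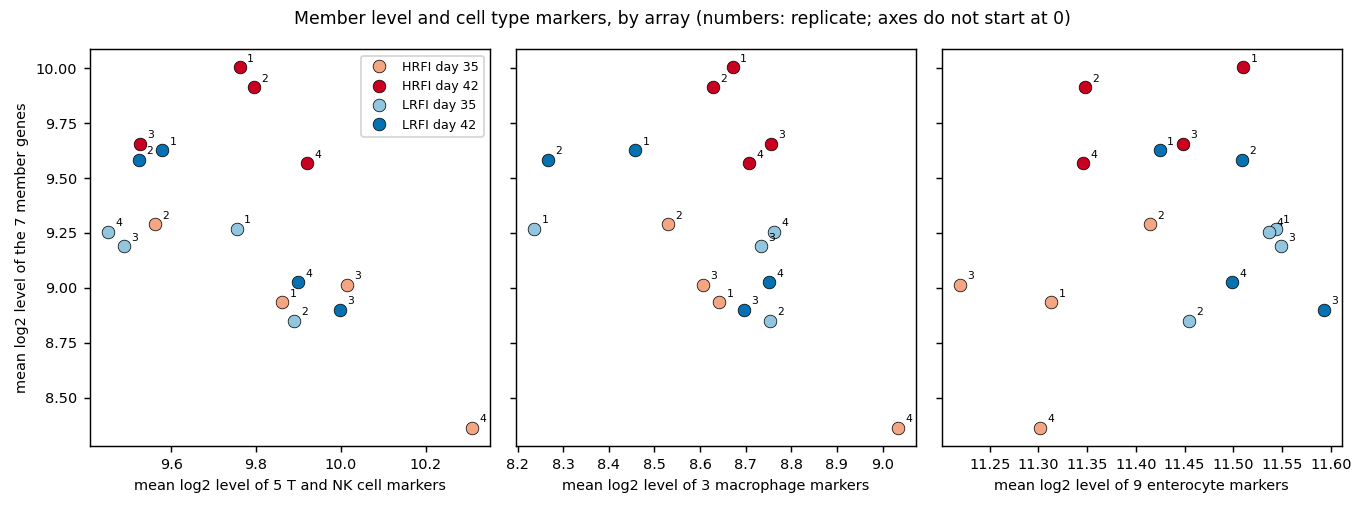
Mean log2 level of the 7 members (vertical axis) against the mean log2 level of 5 T and NK cell, 3 macrophage and granulocyte, and 9 enterocyte markers (horizontal axes), with a point per array coloured by group and numbered by replicate. HRFI day 35 replicate 4 has the lowest member mean (8.36) and the highest T and NK cell mean (10.31), and the HRFI day 42 arrays hold the upper end of the member range.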

How the data were processed

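RNA of chicken duodenum was measured on 16 Affymetrix arrays in 4 groups of 4 by line and age, grouped from the labels. Trizol extracts of total RNA were labelled as biotin cRNA, per the labels' protocols. The deposited log2 values came from Partek 6.5 and RMA, per the submitters' processing notes. RMA subtracts background, sets all arrays to the same distribution of values and combines the probes of a set, which compresses differences of dim probe sets. The values were used as deposited, and array medians lay between 5.05 and 5.10. Arrays have no read depth, so their number limits the precision. The median SE of a difference over all probe sets was 0.12 for 4 against 4 arrays, 0.085 for the averages and 0.17 for the interaction, and that of the 7 member genes 0.28 for 4 against 4.

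After 96 control probe sets were left out, 38439 were tested with limma 3.58.1 (R 4.3.3, and data.table, version 1.17.8), with 1 mean per group over all 16 arrays, eBayes, and Benjamini-Hochberg adjustment over all of them in each of 7 comparisons. The platform annotation gave 1 symbol to 27184 probe sets and several to 161, and 26853 matched a RefSeq gene table of GRCg7b through Entrez identifiers with 0 symbols updated. A check on simulated arrays with independent noise asked whether the fit returned planted mean differences. It did not cover genes that move together or arrays far from their group. Named were all member probe sets, the 3 genes with the smallest p in the day 42 line difference and in the interaction of each other pathway list, and the 10 genes most like the member mean. PMVK is the only gene of its list, and it was measured. The AACS, SREBF1 and SREBF2 values and the array values of NSDHL and SQLE were chosen after they were seen. The members and lists were chosen with earlier results of these data known. No promoter or protein sequences were used here. Alternatives were a replicate block, other variance estimates, centring, a filter on dim probe sets, the mean of a gene's probe sets, the actin difference, and leaving out arrays.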

Additional observations from a re-analysis of the deposited data

Results flagged for a closer look

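For MVK, LRFI day 35 replicate 2 read 6.14, apart from the other 3 arrays of its group at 6.25 to 6.26. It was the only array far from the others in 48 groups of 4 arrays examined (12 probe sets in 4 groups), and about 1 in 20 such groups is picked out by chance. For 4 probe sets the lines differed in opposite directions at the 2 ages, since each of the 4 LRFI arrays exceeded the mean of HRFI at day 35 and each lay below it at day 42. The interaction, the LRFI age difference minus that of HRFI, was −1.29 for HMGCS1, −0.32 for MVD, and −1.37 and −1.17 for the dimmest and the brightest IDI2 probe set. None of these passed the interaction test, with adjusted p = 0.714 or more (limma).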

How the results depend on the processing

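With 1 array left out, the median of the member genes ran from 0.094 to 0.53 for the lines at day 35, from −0.62 to −0.27 at day 42, from −0.25 to −0.075 for their average and from 0.023 to 0.35 for age in LRFI. The age difference in HRFI was positive for all 7 genes under every alternative, and its median ran from 0.69 (without HRFI day 35 replicate 4) to 1.31 with 1 array left out and was 1.54 without the 5 arrays with actin differences over 1. For age averaged over the lines the median was 0.83 without those arrays, and for the interaction −1.33, against −1.06 to −0.40 with 1 array left out. Leaving out those 5 arrays kept only replicates 1 and 4 of HRFI day 35, and replicate 4 had the lowest member mean of all arrays. Over the alternatives, the count of member probe sets at an unadjusted p under 0.05 for the lines at day 42 ran from 2 to 6. The 2 came without LRFI day 42 replicate 3, and 6 was reached with arrays centred on their median. Shares of all probe sets are not given here for these fits, so the counts stand without such a comparison. Beyond line and age, the labels tie arrays of different groups only by a replicate number. Of 24 same-numbered pairs from different groups, deviations correlated over 0.1 in 6 (−0.31 to 0.33), and the own number was the best match in 6. With 4 arrays in a group this check cannot tell whether the numbers stand for a pairing or a batch. With the replicate block, 2 IDI2 probe sets passed the adjusted p for age in HRFI (adjusted p = 0.00185 and 0.0263, limma) and 2 for age averaged over the lines (adjusted p = 0.00633 and 0.0453, limma), and without LRFI day 35 replicate 1 the latter count was 1 (0 to 1 with 1 array left out). By adjusted p the block changed no other call of a member. At an unadjusted p under 0.05 it gave 1 member probe set for the lines at day 35 (0 without it), 2 for age in LRFI (1 without it) and 4 for the interaction (5 without it). The share of all probe sets at that threshold with the block is not given here, so whether these shifts are particular to the members cannot be told. The count of all probe sets past the adjusted p ran from 0 to 5 for the lines at day 35 and at day 42 and 0 to 1 for their average. It ran from 0 to 33 for age in LRFI and 0 to 11 in HRFI. For age averaged over the lines it ran from 0 to 45, and for the interaction from 0 to 8. The 33, 45 and 8 came without LRFI day 35 replicate 1. The 11 came with the replicate block, which gave 19 for age averaged over the lines (1 without it). The cause of these shifts was not tested. The number of arrays, 4 in a group, limits what single probe sets can show.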
